A study of Mus musculus with 9 samples.

Results

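Annexins and S100 proteins are the calcium-binding proteins described here, as 10 liver genes: Anxa1, Anxa2, Anxa3, Anxa5, S100a4, S100a6, S100a8, S100a9, S100a10 and S100a11. They were picked by gene symbol from a table of 54532 genes, all 10 symbols were found, and 9 of the 10 reached at least 0.5 FPKM (reads scaled to gene length and library size) in all 9 libraries and were tested. S100a4 reached that level in 0 libraries and was not tested. Each library is poly(A) RNA of 1 liver sample from wild-type male C57BL/6J mice, in 3 groups of 3. The 326E group ate CDAA-HFD, a high-fat diet without choline whose protein is replaced by amino acids, and received 30 mg/kg of 326E for 6 weeks, the vehicle group ate CDAA-HFD and received vehicle, and the chow group ate normal chow and received vehicle. CDAA-HFD is used to produce steatohepatitis with fibrosis in mice, and 326E is described by the study's title as an enedioic acid analogue aimed at ACLY and PPARα. The sample titles carry the prefix MCD, which often stands for another diet, and the diet named in the protocol is followed here. The ages of the mice and the days on the diet are not given in the labels, and nothing in them ties a library to its own mouse, so p-values measure the spread between these libraries.

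Annexins bind phospholipid membranes when calcium rises, and act in membrane repair, vesicle traffic and the clearance of dying cells. S100 proteins are small EF-hand proteins, mostly dimers, that change shape on binding calcium and then dock onto other proteins. The families meet in known complexes, since S100A10 binds annexin A2 and S100A11 binds annexin A1. S100A8 and S100A9 form calprotectin, a major protein of neutrophils and monocytes that is also released as an alarm signal. In liver, most of these genes are known to be more active in macrophages, neutrophils, bile duct cells and mesenchymal cells than in hepatocytes. In whole liver, more cells of a type and more RNA per cell cannot be told apart.

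Promoters of 5 members are shown first, for the calprotectin pair S100a8 and S100a9, whose proteins form one complex, for the pair Anxa2 and S100a11, whose patterns were the closest among the members, and for Anxa1, the member with the widest difference in vehicle over chow and in 326E over vehicle livers. Each is the stretch from 250 bases before to 50 bases after the start annotated by RefSeq on GRCm38.p6, written 5′ to 3′ on the strand of the gene. Capitals mark every match to 5 motifs on either strand: AP-1 (TGANTCA), C/EBP (TTGCNNAA), PU.1 (GAGGAAGT), the TATA box (TATAAA) and a PPAR direct repeat with a spacer of 1 base.
S100a8, chr3:90668821-90669120, plus strand: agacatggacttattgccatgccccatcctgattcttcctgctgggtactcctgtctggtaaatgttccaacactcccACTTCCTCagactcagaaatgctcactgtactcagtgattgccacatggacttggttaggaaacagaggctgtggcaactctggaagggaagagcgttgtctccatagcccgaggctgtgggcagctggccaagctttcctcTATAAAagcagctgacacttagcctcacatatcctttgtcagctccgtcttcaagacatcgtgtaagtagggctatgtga
S100a9, chr3:90695672-90695971, minus strand: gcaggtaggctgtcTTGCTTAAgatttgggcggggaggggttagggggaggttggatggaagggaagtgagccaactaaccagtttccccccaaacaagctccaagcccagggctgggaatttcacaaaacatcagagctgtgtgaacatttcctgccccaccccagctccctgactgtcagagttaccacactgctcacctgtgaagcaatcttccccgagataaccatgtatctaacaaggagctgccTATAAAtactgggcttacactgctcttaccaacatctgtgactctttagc
Anxa2, chr9:69453433-69453732, plus strand: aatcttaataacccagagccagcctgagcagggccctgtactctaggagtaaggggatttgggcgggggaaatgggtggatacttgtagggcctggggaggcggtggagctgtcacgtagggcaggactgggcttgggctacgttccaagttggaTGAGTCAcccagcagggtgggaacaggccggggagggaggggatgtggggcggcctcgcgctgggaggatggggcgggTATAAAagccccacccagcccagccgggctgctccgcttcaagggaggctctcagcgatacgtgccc
S100a11, chr3:93520246-93520545, plus strand: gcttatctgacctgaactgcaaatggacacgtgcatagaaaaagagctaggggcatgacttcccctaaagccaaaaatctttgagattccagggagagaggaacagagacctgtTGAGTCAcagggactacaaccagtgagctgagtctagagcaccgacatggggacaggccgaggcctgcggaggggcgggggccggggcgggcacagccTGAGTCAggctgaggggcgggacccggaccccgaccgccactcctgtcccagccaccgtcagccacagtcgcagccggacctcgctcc
Anxa1, chr19:20390622-20390921, minus strand: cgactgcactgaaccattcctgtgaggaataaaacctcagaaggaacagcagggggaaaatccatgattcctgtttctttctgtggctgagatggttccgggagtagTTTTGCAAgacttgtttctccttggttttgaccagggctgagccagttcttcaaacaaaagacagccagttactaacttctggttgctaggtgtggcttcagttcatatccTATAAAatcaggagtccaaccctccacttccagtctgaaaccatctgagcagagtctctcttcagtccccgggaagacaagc

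Promoters of 8 members were in the RefSeq table, those above and those of Anxa5, S100a4 and S100a6. They were set against 32851 counted promoters of this length, which do not cover every chromosome. TGANTCA, in the form TGAGTCA, stood in the windows of Anxa2 and S100a11, in 2 of the 8, against 7.81% of counted promoters. TTGCNNAA stood in S100a9 and Anxa1, 2 of 8, against 10.8% of them. GAGGAAGT stood in S100a4 and S100a8, 2 of 8, against 3.2% of them. TATAAA stood in S100a4, S100a8, S100a9, Anxa2 and Anxa1, 5 of 8, against 13.6% of counted promoters. In S100a9 it lay at the annotated start itself. The PPAR repeat stood in 0 of 8, against 0.0396% of counted promoters. No match overlapped another. These are matches of letters and not measured binding.

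Assigned reads ranged from 13275888 to 17058316 over the libraries. The deposited values were already scaled between libraries, and scaled instead to total assigned reads the median difference of all tested genes moved from -0.04 to 0.25 (log2) for vehicle over chow livers and from -0.02 to 0.24 for 326E over chow livers. Lists of marker genes gave summed levels of 498 to 920 FPKM in 326E, 945 to 1520 FPKM in vehicle and 109 to 122 FPKM in chow livers for 10 genes of recruited and lipid-associated macrophages. For 10 stellate cell and myofibroblast genes the sums were 158 to 187, 245 to 354 and 50.9 to 69.4 FPKM in 326E, vehicle and chow livers. Hepatocyte genes such as Alb were high throughout, with summed levels of 25500 to 36700, 28500 to 43000 and 40700 to 47500 FPKM in the same order, so the libraries are liver by this measure. In vehicle over chow livers 10 of 10 macrophage genes, 7 of 9 tested stellate genes and 3 of 5 tested cholangiocyte genes rose. In 326E relative to vehicle livers 6, 5 and 0 of them fell. Over all tested genes 20.8% rose in the first of these comparisons and 6.5% fell in the second. Vehicle replicate 1 stood below the other vehicle libraries for the macrophage list (945, against 1520 and 1500 FPKM). By the same list 326E replicate 1 stood above the other 326E libraries (920, against 508 and 498 FPKM). Lyz2 made up most of the macrophage sums, at 350 to 677, 639 to 1080 and 78.1 to 86.6 FPKM in 326E, vehicle and chow livers. Gpnmb, the next highest by its mean, ran from 19.4 to 64.2, 107 to 147 and 0.0237 to 0.0559 FPKM in that order.

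**Figure D1:**
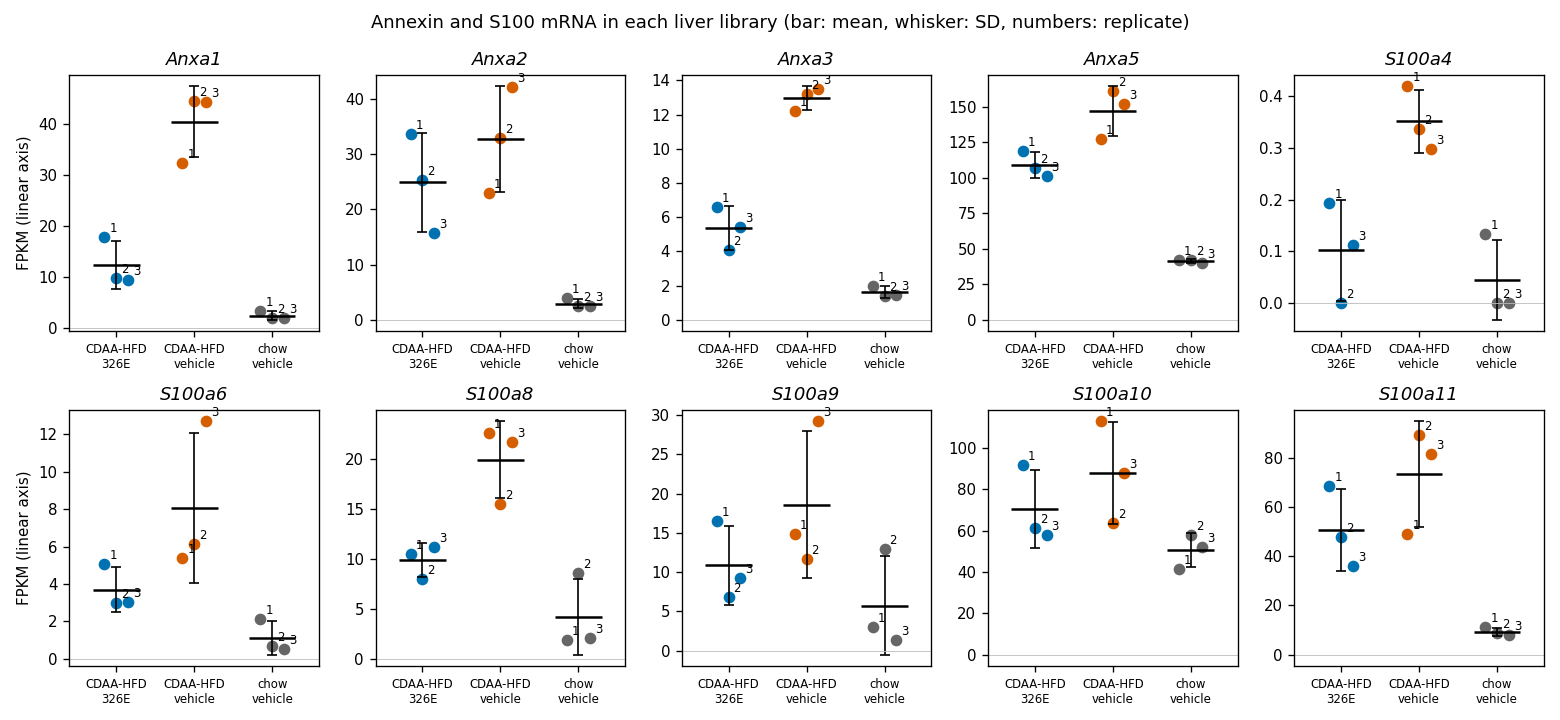
FPKM of each of the 10 genes (linear axes, one per gene) in the 3 libraries of the 326E, vehicle and chow groups, with the mean as a bar and the SD as a whisker. Anxa1 and Anxa3 separate all 3 groups, while the S100a9 and S100a10 points of neighbouring groups mix.

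The first comparison asked what the diet did, vehicle livers on CDAA-HFD against chow livers. All 9 tested members rose, where 20.8% of all tested genes rose and 41.6% changed in either direction. The vehicle libraries lay wholly above the chow libraries for 9 of the 10 members, all but S100a9, and wholly below them for 0, against 24.9% and 27% of all tested genes. S100a4 is counted there although it had few reads, was not tested and is not part of those shares. The differences of the 9 tested members ran from 0.76 for S100a10 to 3.56 for Anxa1 on the log2(FPKM+1) scale, with a median of 2.23 against -0.04 over all tested genes. With scaling to total assigned reads 84.1% of called genes were higher, against 50% as deposited, and the 9 members rose under both.

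The next comparison set 326E livers against vehicle livers on the same diet, to ask what the compound changed. Only Anxa1 and Anxa3 passed among the 9 tested members, both lower, where 6.5% of all tested genes fell, 4.96% rose and 11.5% changed. The 326E libraries lay wholly below the vehicle libraries for 6 members, Anxa1, Anxa3, Anxa5, S100a4, S100a6 and S100a8, against 18.2% of all tested genes. These 6 include S100a4, which had few reads, was not tested and so is not part of that share. The other 7 tested members, those besides Anxa1 and Anxa3, had lower means in 326E livers without passing. The median of the 9 was -0.70, against -0.02 over all tested genes. With voom on the whole reads 4 members passed, Anxa5 and S100a8 being added, while the count over all tested genes was 1860, against 1574. With vehicle replicate 2 as the sole vehicle library 0 members and 322 genes passed; that library is then assumed to vary like the other groups, and the differences of Anxa1 and Anxa3 were -1.82 and -1.17, against -1.66 and -1.15 with all libraries.

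The last comparison set 326E livers on CDAA-HFD against chow livers. Here 7 of the 9 tested members were higher and 0 lower, where 14.4% of all tested genes were higher and 26.8% changed, and the members that did not pass were S100a9 and S100a10. The 326E libraries lay wholly above the chow libraries for 6 members, against 22.4% of all tested genes. With scaling to total assigned reads 86.9% of called genes were higher, against 53.5% as deposited. The median was 1.29, against -0.02 over all tested genes. These comparisons share libraries, the vehicle livers or the chow livers, so each member's values in all 3 groups are given side by side in what follows.

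**Figure D2:**
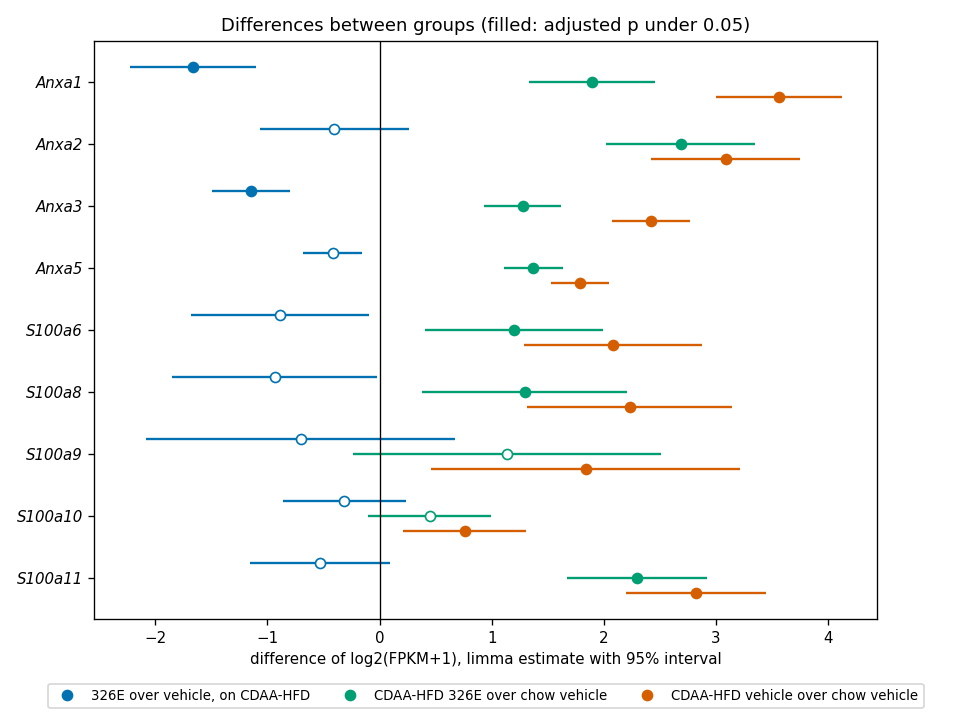
Differences of log2(FPKM+1) between groups for the 9 tested genes, with 95% intervals from limma, filled where the adjusted p is under 0.05. All vehicle over chow points lie right of 0 and are filled, and the filled points left of 0 are those of Anxa1 and Anxa3 for 326E over vehicle.

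Anxa1 (ENSMUSG00000024659, chromosome 19, 20373428 to 20390944, mm10) encodes annexin A1, which is induced by glucocorticoids and limits the recruitment of leukocytes through formyl peptide receptors. It stood at 17.8, 9.95 and 9.52 FPKM in 326E livers, at 32.4, 44.5 and 44.2 FPKM in vehicle livers and at 3.48, 2.04 and 2.06 FPKM in chow livers. The 3 groups did not overlap. The rise of vehicle over chow livers was 3.56 ± 0.25 (log2 difference ± SE, adjusted p = 1.63e-05), from means of 40.4 ± 6.9 and 2.53 ± 0.823 FPKM (SD, n = 3 each), and ranked 33rd of 13737 genes. In 326E livers the mean was 12.4 ± 4.64 FPKM, and Anxa1 fell by 1.66 ± 0.25 relative to vehicle livers (adjusted p = 0.00558), while it remained 1.90 ± 0.25 above chow livers (adjusted p = 0.000881). With each library left out in turn the 326E difference stayed between -1.93 and -1.52 and passed each time, and with vehicle replicate 2 as the sole vehicle library it was -1.82 (adjusted p = 0.0556).

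Anxa3 (ENSMUSG00000029484, chromosome 5, 96793339 to 96845966, mm10) encodes annexin A3, found in neutrophils and some epithelia. Its levels were 6.6, 4.06 and 5.45 FPKM in 326E livers, 12.2, 13.2 and 13.5 FPKM in vehicle livers and 2, 1.38 and 1.45 FPKM in chow livers. As for Anxa1, the groups did not overlap, and the vehicle libraries agreed closely. Vehicle livers were 2.42 ± 0.15 above chow livers (adjusted p = 1.09e-05), and Anxa3 fell by 1.15 ± 0.15 in 326E relative to vehicle livers (adjusted p = 0.0035). It was still 1.28 ± 0.15 higher in 326E than in chow livers (adjusted p = 0.000601). The 326E difference ran from -1.29 to -0.99 with each library left out and passed each time, and with vehicle replicate 2 as the sole vehicle library it was -1.17 (adjusted p = 0.0578).

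Anxa2 (ENSMUSG00000032231, chromosome 9, 69453620 to 69491795, mm10) encodes annexin A2, which with S100A10 holds plasminogen and its activator at the cell surface. It measured 33.7, 25.3 and 15.7 FPKM in 326E livers, 23, 32.9 and 42.2 FPKM in vehicle livers and 3.86, 2.42 and 2.42 FPKM in chow livers. The 326E and vehicle libraries mixed, and both stood above every chow library. Vehicle livers exceeded chow livers by 3.09 ± 0.29 (adjusted p = 7.21e-05), and 326E livers exceeded chow livers by 2.69 ± 0.29 (adjusted p = 0.000383). Between 326E and vehicle livers the difference was -0.40 ± 0.29 (adjusted p = 0.407), with a 95% interval from -1.07 to 0.26, and it was -0.12 and -0.20 without 326E replicate 3 or vehicle replicate 3, and -0.65 and -0.63 without 326E replicate 1 or vehicle replicate 1. The antisense gene Gm16144 covers 98 of its 3731 exon bases and had 37 reads in all libraries together.

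Anxa5 (ENSMUSG00000027712, chromosome 3, 36448923 to 36475894, mm10) encodes annexin A5, known for binding the phosphatidylserine that dying cells expose, and was the most abundant member per length on this diet. Values were 119, 107 and 101 FPKM in 326E livers, 127, 161 and 152 FPKM in vehicle livers and 42.4, 42.3 and 39.8 FPKM in chow livers. No group overlapped another, and the chow libraries lay within 1.06-fold of each other. Vehicle livers were 1.79 ± 0.12 above chow livers (adjusted p = 1.21e-05) and 326E livers 1.37 ± 0.12 above them (adjusted p = 0.000124). The difference of 326E from vehicle livers was -0.42 ± 0.12 and lay at the threshold without passing it (adjusted p = 0.05 when rounded). It passed without vehicle replicate 1 (-0.52, adjusted p = 0.0318), with array weights (adjusted p = 0.0207) and in 4 other alternatives.

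S100a11 (ENSMUSG00000027907, chromosome 3, 93520488 to 93526287, mm10) encodes the S100 partner of annexin A1. It reached 68.8, 47.8 and 35.9 FPKM in 326E livers, 49, 89.6 and 81.9 FPKM in vehicle livers and 11.2, 8.61 and 8.02 FPKM in chow livers. All 6 libraries of the diet exceeded all chow libraries, and 326E replicate 1 lay above vehicle replicate 1. The rise was 2.82 ± 0.28 in vehicle over chow livers (adjusted p = 8.37e-05) and 2.30 ± 0.28 in 326E over chow livers (adjusted p = 0.000607). For 326E over vehicle livers the value was -0.53 ± 0.28 (adjusted p = 0.249), and it was -0.31 without 326E replicate 3 and -0.79 without vehicle replicate 1.

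S100a10 (ENSMUSG00000041959, chromosome 3, 93555080 to 93564643, mm10) encodes p11, the S100 protein that does not respond to calcium and that pairs with annexin A2. It was the highest member in chow livers by its mean. The libraries gave 92, 61.2 and 57.8 FPKM in 326E livers, 113, 63.5 and 87.9 FPKM in vehicle livers and 41.6, 58.1 and 52.2 FPKM in chow livers. The vehicle libraries stood above the chow libraries by a small margin, and the 326E libraries overlapped both. The rise in vehicle over chow livers, 0.76 ± 0.24 (adjusted p = 0.0325), was lost without vehicle replicate 1 or 3 or chow replicate 1 or 3 (0.57 to 0.79, adjusted p = 0.0653 to 0.108). Against vehicle livers 326E gave -0.31 ± 0.24 (adjusted p = 0.438), with -0.12 and -0.19 without vehicle replicate 1 or 326E replicate 3, and -0.53 and -0.52 without vehicle replicate 2 or 326E replicate 1. Against chow livers it gave 0.45 ± 0.24 (adjusted p = 0.206), which passed with scaling to total reads (0.81, adjusted p = 0.0332).

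S100a6 (ENSMUSG00000001025, chromosome 3, 90612882 to 90624181, mm10) encodes calcyclin, an S100 protein of fibroblasts and epithelia. Its values were 5.09, 3 and 3.02 FPKM in 326E livers, 5.37, 6.12 and 12.7 FPKM in vehicle livers and 2.15, 0.678 and 0.533 FPKM in chow livers. Neighbouring groups came close without overlap, since 326E replicate 1 and vehicle replicate 1 differed little, and vehicle replicate 3 carried most of the vehicle mean. The chow values rest on 38, 12 and 8 reads. Vehicle livers were 2.09 ± 0.35 above chow livers (adjusted p = 0.00154), and the value for 326E over vehicle livers was -0.89 ± 0.35 (adjusted p = 0.137), or -0.55 without vehicle replicate 3. The rise of 326E over chow livers, 1.20 ± 0.35 (adjusted p = 0.0333), was lost without any one 326E replicate or without chow replicate 2 or 3 (at most 1.30, adjusted p = 0.0545 to 0.115), and with a pseudocount of 5 it was 0.51.

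S100a8 (ENSMUSG00000056054, chromosome 3, 90668978 to 90670035, mm10) encodes the smaller chain of calprotectin. It stood at 10.5, 7.97 and 11.2 FPKM in 326E livers, at 22.6, 15.5 and 21.7 FPKM in vehicle livers and at 1.9, 8.56 and 2.1 FPKM in chow livers. The vehicle libraries lay above all others, and chow replicate 2 reached into the range of the 326E libraries. The rise of vehicle over chow livers was 2.23 ± 0.40 (adjusted p = 0.00229) and 2.79 without chow replicate 2 (adjusted p = 6.06e-05). For 326E over vehicle livers the value was -0.94 ± 0.40 (adjusted p = 0.169), and without chow replicate 2, which adds to the shared estimate of the spread, the same difference passed (adjusted p = 0.0134), as it did with only the 6 libraries of the 2 groups (adjusted p = 0.0266). The rise of 326E over chow livers, 1.29 ± 0.40 (adjusted p = 0.0428), was 1.85 without chow replicate 2 (adjusted p = 0.000707). It was lost without any one of the other libraries except vehicle replicate 2 (0.99 to 1.43, adjusted p = 0.056 to 0.134).

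S100a9 (ENSMUSG00000056071, chromosome 3, 90692632 to 90695721, mm10) encodes the larger chain. The libraries gave 16.5, 6.79 and 9.29 FPKM in 326E livers, 14.8, 11.7 and 29.2 FPKM in vehicle livers and 2.97, 12.9 and 1.39 FPKM in chow livers. All groups overlapped: 326E replicate 1 exceeded vehicle replicates 1 and 2, and chow replicate 2 exceeded vehicle replicate 2 and 326E replicates 2 and 3. The rise of vehicle over chow livers, 1.84 ± 0.61 (adjusted p = 0.0374), was lost without 326E replicate 3, vehicle replicate 1 or 3, or chow replicate 1 or 3 (1.30 to 1.95, adjusted p = 0.053 to 0.118), and was 2.56 without chow replicate 2 (adjusted p = 0.00308). Neither 326E over vehicle livers (-0.70 ± 0.61, adjusted p = 0.493) nor 326E over chow livers (1.14 ± 0.61, adjusted p = 0.201) passed, the last passing without chow replicate 2 (1.86, adjusted p = 0.0208). The value for 326E over vehicle livers was -0.34 without vehicle replicate 3 and -0.44 without 326E replicate 2.

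Chow replicate 2 differed in other genes as well. Lcn2, an iron-binding protein of neutrophils and of hepatocytes in the acute phase, stood at 89.3 FPKM there, against 1.71 and 2.95 FPKM in chow replicates 1 and 3, and at 16.8 to 39.1 FPKM in 326E livers and 93.4 to 163 FPKM in vehicle livers. All 12 genes of the neutrophil list, Lcn2 included, summed to 21.7 to 46.8 FPKM in 326E livers and 106 to 173 FPKM in vehicle livers. Chow replicates 1, 2 and 3 had 3.4, 97 and 4.86 FPKM. Lcn2 was then left out, a choice made after the values were seen. The 11 other genes summed to 4.93 to 7.7 FPKM in 326E livers and 8.59 to 14.1 FPKM in vehicle livers, while the chow libraries had 1.69, 7.76 and 1.91 FPKM. Csf3r, the receptor for the neutrophil growth factor G-CSF, was the highest of these by its mean over all 9 libraries, at 2.38 to 3.06, 4.13 to 5.02 and 0.252 to 1.22 FPKM in 326E, vehicle and chow livers. Retnlg, a resistin-like gene of neutrophils, and Ngp were named after their values were seen. Both were higher than Csf3r in chow replicate 2, at 2.08 and 1.58 FPKM, against 1.22 FPKM. Ngp, Camp and Elane of the same list had their highest value of all 9 libraries there. They reached 1.58, 0.713 and 0.628 FPKM, from 25, 7 and 8 reads. Of the 12 genes in the list 7 were tested, 5 rose in vehicle over chow livers and 1, Cxcr2, fell in 326E relative to vehicle livers. Over all tested genes 20.8% rose and 6.5% fell in these comparisons. Ngp (-0.13, adjusted p = 0.807) and Retnlg (0.97, adjusted p = 0.0792) did not pass in vehicle over chow livers, and Camp and Elane were too low to be tested. The defining marker Ly6g was at 0 in all vehicle and chow libraries. Red cell and platelet genes summed to 336 to 756 FPKM in 326E and 338 to 558 FPKM in vehicle livers, and to 493, 1170 and 683 FPKM in chow replicates 1, 2 and 3. The part of neutrophils or blood in the S100a8 and S100a9 values was not tested.

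S100a4 (ENSMUSG00000001020, chromosome 3, 90603771 to 90606045, mm10) encodes FSP1, an S100 protein of macrophages and fibroblasts, and was nearly unread, with 0 to 4 reads per library. The values were 0.194, 0 and 0.112 FPKM in 326E livers, 0.419, 0.337 and 0.298 FPKM in vehicle livers and 0.133, 0 and 0 FPKM in chow livers, from 3, 11 and 1 reads in the 326E, vehicle and chow groups. Of its 584 exon bases in GENCODE vM21, whose length matches the deposited one, 302 also belong to exons of Gm42674 on the same strand, and Gm42674 had 0 reads in all libraries. How reads in shared bases were assigned is not stated, and the effect on the S100a4 level was not tested. With no filter on low values, the vehicle over chow difference was 0.37 (adjusted p = 0.0113) and the 326E over vehicle difference was -0.30 (adjusted p = 0.0843), on these few reads. No other member shared more than 112 exon bases with another gene. The deposited length of Anxa1, 2608 bases, is shorter than its 2911 exon bases in GENCODE vM21, while the lengths of the other members match. This bears on the level of Anxa1 per length and on its ratios to other members, and how much was not tested.

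Per length, the order of the mean levels in 326E and vehicle livers began with Anxa5, S100a10 and S100a11 and ended with Anxa3, S100a6 and S100a4. In vehicle livers Anxa5 averaged 146 ± 17.4 FPKM and S100a6 8.06 ± 4.03 FPKM. Chow livers began with S100a10 at 50.7 ± 8.37 FPKM and Anxa5 at 41.5 ± 1.43 FPKM, whose libraries overlapped, and S100a11 followed at 9.28 ± 1.7 FPKM with no overlap. Anxa1 took place 5 in 326E livers, place 4 in vehicle livers and place 7 in chow livers, and it overlapped Anxa2 in all 3 groups. S100a8 and S100a9 overlapped in every group. Replicate spread was widest for S100a9 among the tested members, with a coefficient of variation of 46.4%, 50.5% and 108% in 326E, vehicle and chow livers, while Anxa5 had 8.55%, 11.9% and 3.44% and Anxa3 had 5.18% in vehicle livers.

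The highest library of a group was often the same from member to member. Of the 10 members, 9 were highest in 326E replicate 1 among the 326E libraries, S100a8 being the exception, and that library also had the highest sums of macrophage genes, given above, and of cholangiocyte genes (23.1, against 10.7 and 10.5 FPKM). Among vehicle libraries the highest values were split, 3 members in replicate 1, 3 in replicate 2 and 4 in replicate 3. Anxa1, Anxa2, Anxa3, Anxa5, S100a6 and S100a11 were lowest in vehicle replicate 1, where the sum of recruited and lipid-associated macrophage genes was also lowest. So were the sums of cholangiocyte genes (12, against 27.5 and 36.6 FPKM) and of stellate genes (245, against 354 and 290 FPKM). Neutrophil and endothelial sums were lowest there too, while hepatocyte sums and red cell and platelet sums were not. The sum of 7 resident Kupffer cell genes was highest in that library, at 240 FPKM, against 159 and 179 FPKM in vehicle replicates 2 and 3. It was 161 to 279 FPKM in 326E livers and 146 to 170 FPKM in chow livers. Cd5l and Clec4f were the highest genes of this list, and its genes did not move together. In vehicle over chow livers 2 rose, 2 fell and 3 did not pass, where 20.8% of all tested genes rose and 20.8% fell. In 326E over vehicle livers 1 rose and 6 did not pass, where 4.96% of all tested genes rose. In chow livers 7 members were highest in replicate 1, where the cholangiocyte sum was 16.4, against 7.72 and 6.04 FPKM, and the other 3 in replicate 2. S100a4 enters these counts on 2 reads in 326E replicate 1, 4 in vehicle replicate 1 and 1 in chow replicate 1. How many of all tested genes were highest in the same libraries was not counted. The part of macrophages, stellate cells, bile duct cells or other cell types in the members' values was not tested.

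**Figure D3:**
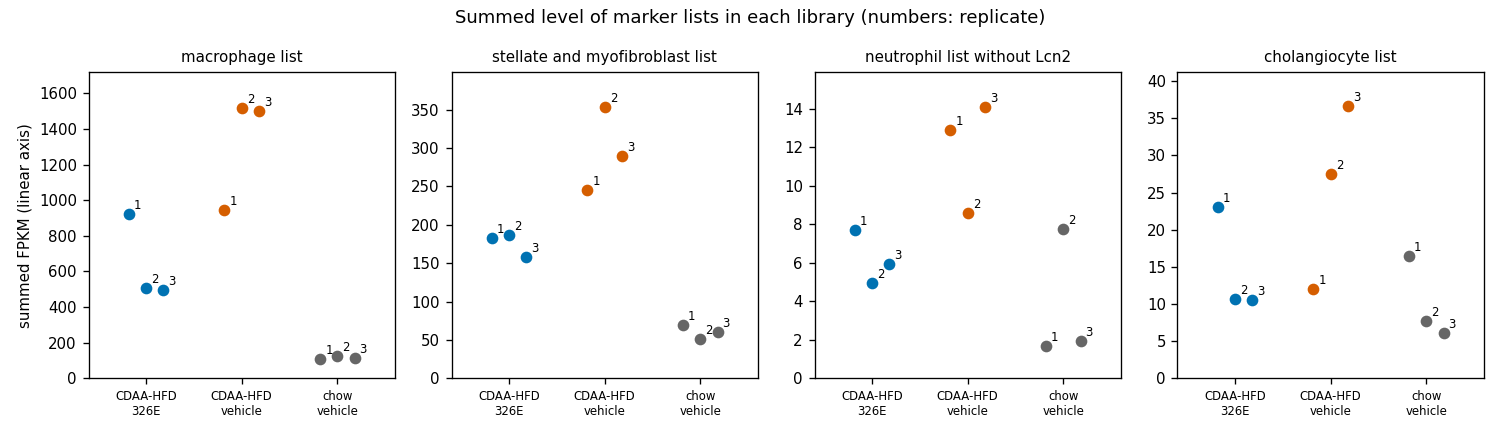
Summed FPKM of 4 marker lists (linear axes) in each library of the 326E, vehicle and chow groups, numbered by replicate. The macrophage sum is 920 FPKM in 326E replicate 1 and 945 FPKM in vehicle replicate 1. Lyz2 makes up 677 and 639 FPKM of these sums. Gpnmb, the next highest gene of the list, is at 64.2 and 107 FPKM in the same libraries. The neutrophil genes without Lcn2, which was left out after the values were seen, reach 7.76 FPKM in chow replicate 2.

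Ratios within a library show how partners changed against each other. S100a10 over Anxa2 was 2.73, 2.42 and 3.69 in 326E livers, 4.9, 1.93 and 2.08 in vehicle livers and 10.8, 24 and 21.6 in chow livers. Chow livers thus held many S100a10 messages per Anxa2 message, and both diet groups held few, with no overlap. S100a11 over Anxa1 was 3.87, 4.8 and 3.77 in 326E livers, 1.51, 2.01 and 1.85 in vehicle livers and 3.23, 4.22 and 3.89 in chow livers. The vehicle libraries lay below both other groups. Anxa1 over Anxa2 was 0.527, 0.394 and 0.607 in 326E livers, 1.41, 1.35 and 1.05 in vehicle livers and 0.9, 0.844 and 0.853 in chow livers, again without overlap. S100a8 over S100a9 was 0.638 to 1.21 in 326E livers, 0.744 to 1.53 in vehicle livers and 0.639 to 1.5 in chow livers, so the calprotectin chains showed no separation. The mean log2 ratio of Anxa1 over Anxa2 differed by -1.33 between 326E and vehicle livers (two-sided exact permutation test, p = 0.1, the smallest that 3 against 3 allows, and 0.16 adjusted over 8 such tests). The ratios were chosen after the values were seen.

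**Figure D4:**
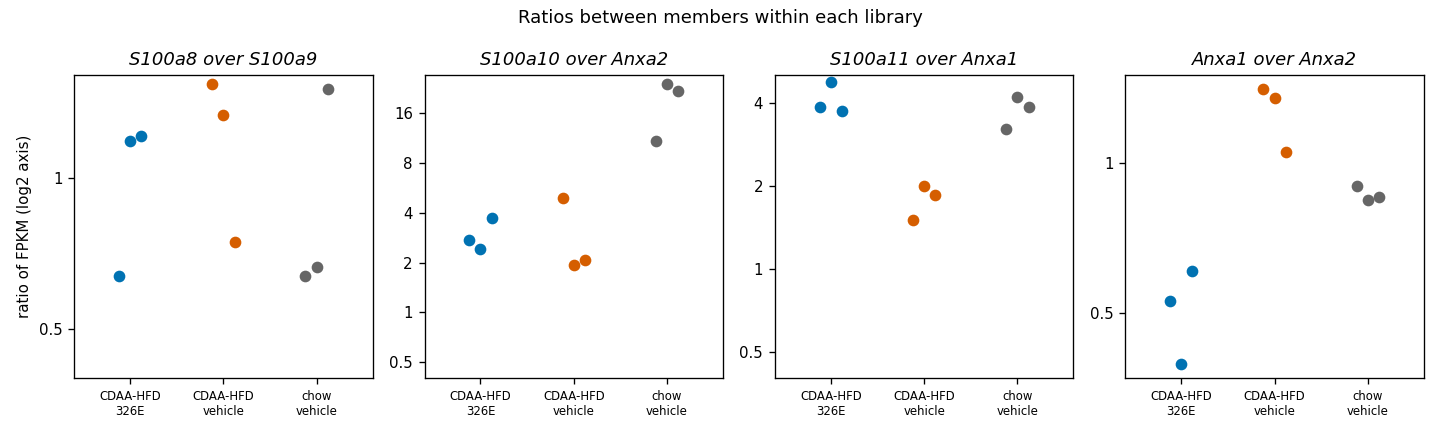
Ratios of FPKM between members within each library (log2 axes) for the 326E, vehicle and chow groups. S100a10 over Anxa2 is 10.8 to 24 in chow livers and 1.93 to 4.9 in the diet groups, and S100a11 over Anxa1 is lowest in vehicle livers.

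Other genes of the families were taken from a list. Of 8 further annexins 6 were tested, and 3 rose in vehicle over chow livers, 0 fell and 3 did not pass, with a median of 0.41. Over all tested genes 20.8% rose and 20.8% fell, with a median of -0.04. Anxa4, an annexin of epithelial secretory cells, stood at 14.5 to 15.2 FPKM in 326E livers, 16.5 to 23.3 FPKM in vehicle livers and 9.13 to 10.6 FPKM in chow livers, and rose by 0.99 ± 0.13 in vehicle over chow livers (adjusted p = 0.000363). For 326E over vehicle livers Anxa4 gave -0.45 (adjusted p = 0.0542). Anxa7 rose less, by 0.43 ± 0.09 (adjusted p = 0.0059), and was 0.58 ± 0.09 higher in 326E than in chow livers (adjusted p = 0.00253). Anxa9 stood at 0.474 to 0.881 FPKM in 326E, 1.59 to 1.95 FPKM in vehicle and 0.411 to 0.633 FPKM in chow livers. It was the one of the 6 that fell in 326E relative to vehicle livers (-0.69 ± 0.12, adjusted p = 0.00935). Over all tested genes 6.5% fell there. Anxa6, abundant at 32.8 to 35.5, 27.1 to 42.5 and 26 to 41.5 FPKM in 326E, vehicle and chow livers, did not pass in any comparison.

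Of 10 further S100 genes 4 were tested, and 6 were too low. In vehicle over chow livers 1 rose, 1 fell and 2 did not pass, and in 326E over vehicle livers 0 passed. Over all tested genes 20.8% rose and 20.8% fell in the first comparison, and 11.5% changed in the second. S100a1, best known from heart muscle, fell by 0.71 ± 0.20 in vehicle relative to chow livers (adjusted p = 0.0204), a call lost under both other scalings, at -0.32 by total reads (adjusted p = 0.234) and at -0.36 by quantiles (adjusted p = 0.146). Its libraries ran from 61.2 to 73.6 FPKM in 326E livers, 51.5 to 81.2 FPKM in vehicle livers and 88.5 to 139 FPKM in chow livers. S100g, which encodes calbindin-D9k, rose by 2.11 ± 0.62 (adjusted p = 0.0229) from uneven values, 2.87 to 11.9 FPKM in 326E, 3.82 to 11.6 FPKM in vehicle and 0 to 3.55 FPKM in chow livers.

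Most S100 genes sit in one cluster on chromosome 3. Along the chromosome the order was S100a1, S100a13, S100a14, S100a16, S100a3, S100a2, S100a4, S100a5, S100a6, S100a7a, S100a8 and S100a9, and after a gap of 2824767 bases S100a11 and S100a10. At the proximal end S100a1, S100a13 and S100a16 had values of -0.71, -0.26 and -0.23 in vehicle over chow livers, with S100a1 alone of these passing. With scaling to total assigned reads S100a13 and S100a16 changed sign, to 0.10 and 0.13, and neither passed. The tested genes beyond them, from S100a6 on, are members and rose. S100a13 and S100a16 averaged 10.2 ± 1.44 and 10.6 ± 0.654 FPKM in 326E livers, 9.67 ± 2.46 and 10.8 ± 3.32 FPKM in vehicle livers and 12.2 ± 5.06 and 12.7 ± 1.7 FPKM in chow livers. S100a3 and S100a5 had no reads in any library.

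**Figure D5:**
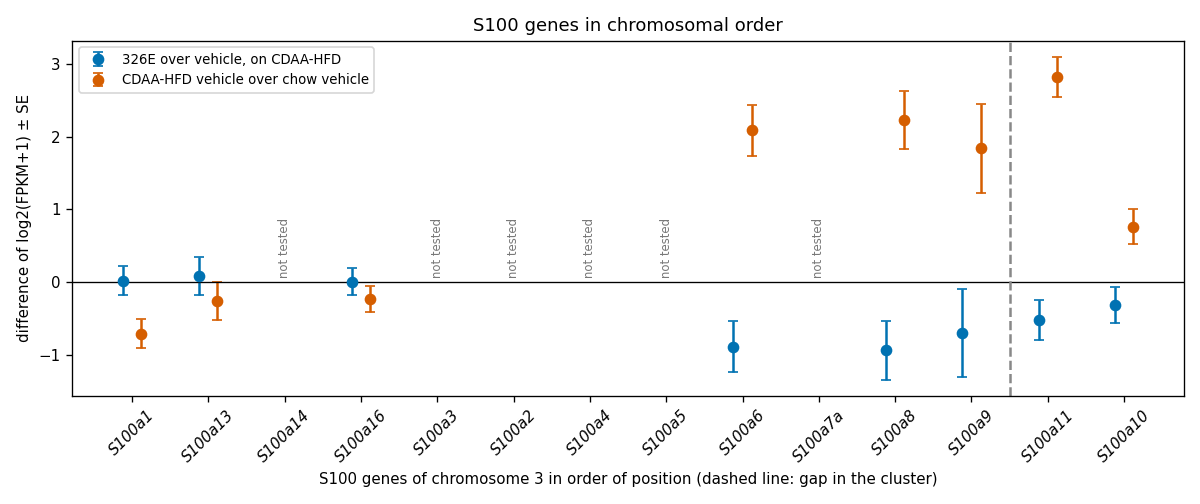
Differences of log2(FPKM+1) ± SE for the S100 genes of chromosome 3 in chromosomal order, for 326E over vehicle livers and vehicle over chow livers. S100a1, S100a13 and S100a16 lie below 0 for vehicle over chow livers, the last 2 of them above it when scaled to total assigned reads, and the tested genes from S100a6 onwards lie above 0.

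Partners and receptors of the families, with the actin-capping gene Capg listed beside them, made a list of 17 genes, of which 16 were tested. In vehicle over chow livers 11 rose, 1 fell and 4 did not pass, with a median of 0.85. Over all tested genes 20.8% rose and 20.8% fell, with a median of -0.04. In 326E over vehicle livers 0 rose, 7 fell and 9 did not pass, with a median of -0.23. Over all tested genes 4.96% rose and 6.5% fell there, with a median of -0.02. The genes that fell with 326E included Plau, the urokinase that activates plasminogen, at 3.49 to 4.23 FPKM in 326E, 7.8 to 9.56 FPKM in vehicle and 0.522 to 0.982 FPKM in chow livers (-1.06, adjusted p = 0.00233). Its receptor Plaur (-1.43, adjusted p = 0.028) and the tissue activator Plat (-0.59, adjusted p = 0.0165) also fell in 326E livers. Plg, the plasminogen made by hepatocytes, was the one that fell in vehicle relative to chow livers (-1.15, adjusted p = 0.00294, and -0.51, adjusted p = 0.0522, with quantile normalization), at 238 to 294, 212 to 339 and 470 to 719 FPKM in 326E, vehicle and chow livers. Ahnak, a scaffold that binds S100A10 and annexin A2, gave -0.86 for 326E over vehicle livers (adjusted p = 0.0097), and Myof, a ferlin of membrane repair, -0.95 (adjusted p = 0.0214). Capg, an actin-capping protein, fell by 1.31 (adjusted p = 0.00659), and Tlr4, a receptor for calprotectin, by 0.51 (adjusted p = 0.022). These 7 genes all rose in vehicle over chow livers, by 1.10 for Tlr4 to 3.81 for Capg.

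The remaining genes that rose with the diet were Fpr2, Myh9, Pla2g4a and Plgrkt. Fpr2, the receptor of annexin A1, rose by 0.87 (adjusted p = 0.00421) and stood at 2.09 to 3.44 FPKM in 326E, 2.02 to 2.92 FPKM in vehicle and 0.562 to 1.25 FPKM in chow livers, with 0.08 for 326E over vehicle livers (adjusted p = 0.811). Myh9, a nonmuscle myosin that S100A4 binds, rose by 0.82 (adjusted p = 0.00271), and Plgrkt, a plasminogen receptor, by 0.79 (adjusted p = 0.00146). Pla2g4a, the cytosolic phospholipase A2 that annexin A1 can inhibit, rose by 0.77 (adjusted p = 0.000373).

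The genes most like each member were sought among the tested genes, leaving out pseudogenes and Gm, Rik or accession-like names. The measure was the root mean square difference of centred log2(FPKM+1) values over the 9 libraries, as a description. For Anxa1 they were Trem2, a lipid receptor of macrophages, at 0.19, Adam8 at 0.21 and the filament protein gene Vim at 0.22. Anxa2 was nearest to S100a11 at 0.21, then to the macrophage gene Cd68 at 0.29 and the collagenase gene Mmp13 at 0.34. S100a11 was nearest to Cd68 at 0.18, then to Anxa2, then to Myo1f at 0.27. The adhesion receptor gene Cd44 at 0.13, Cd84 at 0.13 and Hk3 at 0.14 were nearest to Anxa3. Msn at 0.09, Ehd4 at 0.10 and Il10ra at 0.10 were nearest to Anxa5. S100a6 was less closely matched, by Gdf15 at 0.24, Evi2a at 0.28 and Metrnl at 0.30. For S100a8 the list was the clock gene Per1 at 0.33, Cd300c2 at 0.35 and Spi1, which encodes PU.1, at 0.36. For S100a9 it was S100a8 at 0.44, Per1 at 0.49 and Cebpd, a C/EBP factor, at 0.52. S100a10 was matched by Aoc2 at 0.15, Eppk1 at 0.17 and Sqstm1 at 0.17. The 2 members closest to each other were Anxa2 and S100a11, and the farthest were Anxa1 and S100a10 at 1.21.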

How the data were processed

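Liver poly(A) RNA was sequenced in 9 libraries, 3 per group. Per the submitters' processing notes, HISAT2 and featureCounts were used with mm10; their versions, the annotation and the strand setting are not given in the sources used here, which leaves genes with shared or opposite-strand bases uncertain. The authors deposited FPKM. Multiplied by the deposited gene length, 100% of non-zero values gave whole reads to within 0.01, and the library sizes behind the FPKM were 0.828 to 1.19 of the assigned totals, so the authors had scaled the deposited FPKM between libraries. For a 2 kb gene, 1 read was worth 0.0246 to 0.0455 FPKM, which limits the precision of low values.

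The 13737 genes reaching 0.5 FPKM in 3 or more libraries were fitted on log2(FPKM+1) by limma 3.58.1 (R 4.3.3), a scale that understates changes of low genes. All 9 libraries entered 1 fit with a variance trend. P-values were adjusted by Benjamini-Hochberg over all tested genes within each comparison and called under 0.05. Named genes were the 10 members; other annexins and S100 genes called or at 5 FPKM or more; called partners; the top 2 genes of a marker list; and the 3 nearest genes of each member. The members, lists, motifs and alternatives were chosen with earlier results of these data known. Alternatives were pseudocounts of 0.1 and 5, other filters and scalings, no trend, array weights, 6-library fits, voom, a replicate block, and libraries left out. Promoters came from RefSeq (GRCm38.p6) and exons from GENCODE vM21. Tables and plots used Python 3.11.15, pandas 2.3.3, numpy 2.4.6, scipy 1.17.1 and matplotlib 3.10.9.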

Additional observations from a re-analysis of the deposited data

How the results depend on the processing

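Under 21 alternatives the rises of Anxa1, Anxa2, Anxa3, Anxa5, S100a6 and S100a11 in vehicle over chow livers kept their direction and passed, and so did those of Anxa1, Anxa2, Anxa3, Anxa5 and S100a11 in 326E over chow livers. The call of S100a8 in vehicle over chow livers was lost with vehicle replicate 2 alone (1.91, adjusted p = 0.0638), and those of S100a9 and S100a10 were also lost with no filter (adjusted p = 0.0866 and 0.0696) and with vehicle replicate 2 alone (adjusted p = 0.327 and 0.455). With only the 6 libraries compared the S100a9 call was lost (adjusted p = 0.0639). The calls of S100a6 and S100a8 in 326E over chow livers were lost under 10 and 11 of the alternatives. One member changed sign, S100a10 in 326E over vehicle livers with vehicle replicate 2 alone (0.11). That library had the lowest S100a10 value of the vehicle group, 63.5 FPKM, and the 326E mean was 70.3 FPKM. Why that library was lower was not tested. With that library alone 3596 genes passed in vehicle over chow livers, against 5721, and 322 genes and 0 members in 326E over vehicle livers, against 1574 and 2. Voom on whole reads called 4 members and 1860 genes in 326E over vehicle livers. With no filter 1030 genes passed there. Replicates sharing a number did not deviate together (correlations from -0.244 to 0.024). With 3 libraries a group this cannot exclude a pairing, and the labels do not give one. With a replicate block 1037 genes and 2 members passed in 326E over vehicle livers. The block also ended the call of S100a9 in vehicle over chow livers (adjusted p = 0.0713). It ended those of S100a6 and S100a8 in 326E over chow livers (adjusted p = 0.0535 and 0.0798). With each library left out in turn, 659 to 1623 genes and 2 to 3 members passed in 326E over vehicle livers, 4697 to 5669 genes and 7 to 9 members in vehicle over chow livers, and 2401 to 3717 genes and 5 to 7 members in 326E over chow livers. In 326E over vehicle livers the gene count was 961, 659 and 724 without 326E replicates 1, 2 and 3 and 879 without vehicle replicate 3, and the 2401 in 326E over chow livers was without 326E replicate 2. Few reads limit S100a4 and the chow values of S100a6, S100a8 and S100a9.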
